A study of Mus musculus with 6 samples.

Results

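Transcripts of skeletal muscle were examined library by library in RNA from mouse lungs dissected on embryonic day E18.5, just before birth. A set of 36 genes of the contractile apparatus, the myogenic transcription factors, calcium handling, the neuromuscular junction and muscle energy supply was looked up by gene symbol among the 24521 genes of the deposited normalized table. All 36 were found, and their raw counts were joined by Ensembl identifier. The set was drawn up, with earlier results of these data known, as an indicator of muscle carried along by dissection; the rule itself selects by symbol. The labels name 2 genotypes, wild type and Mll3FDC/FDC, which they also call Mll3 KO (knockout). There were 3 libraries of each. All 6 libraries share the tissue, the stage and the handling: the lungs were not aerated, the lobes were frozen in liquid nitrogen, and polyadenylated RNA was sequenced with its strand kept. The labels state neither the strain nor the nature of the allele, and they do not state whether each library came from a separate embryo, so p-values measure only the spread between these samples.

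Skeletal muscle fibres contract when a motor neuron releases acetylcholine onto receptors of the neuromuscular junction. The depolarisation is sensed by a calcium channel of the fibre's membrane, which opens the calcium release channel of the sarcoplasmic reticulum, and calcium bound by troponin lets myosin heads pull on actin filaments. During development the myogenic regulatory factors commit precursors to the muscle fate, the precursors fuse into fibres, and embryonic and perinatal isoforms of the contractile proteins are later replaced by adult ones. The lung itself has smooth muscle around its airways and vessels and cardiac-like muscle in its larger veins, while skeletal muscle lies outside it, for example in the diaphragm, the chest wall, the larynx and the wall of the mouse oesophagus.

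Library totals ran from 20158689 to 23305306 reads, and a count of 0 reads allowed a level of up to 0.126 to 0.147 CPM (reads scaled to a common library total, here after trimmed-mean or TMM scaling), taking 3 reads as the limit. Lung epithelial markers were high throughout, with Sftpc, the surfactant protein C gene of alveolar type II cells, between 11235 and 13630 CPM. Kmt2c, the gene that encodes Mll3, stood at 162, 179 and 162 CPM in wild type 1 to 3 and at 143, 171 and 159 CPM in knockout 1 to 3. Its total level therefore overlapped between genotypes (log2 fold change -0.09 ± 0.08 SE, edgeR quasi-likelihood adjusted p = 0.737). Since the labels do not give the altered part of the gene, this level does not check the genotype. Xist reads (59951) marked knockout 3 alone, while the other 5 libraries held 6 to 27.

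The 36 skeletal muscle genes were high in one library of each genotype. Their summed level was 913 CPM in wild type 1, 109 CPM in wild type 2 and 86.7 CPM in wild type 3. In the knockout it was 113 CPM in knockout 1, 914 CPM in knockout 2 and 101 CPM in knockout 3. The lowest and the highest library differed 10.5-fold, and wild type 1 and knockout 2 together held 80.9% of all reads counted in these genes. The genotype means were nearly equal beside their spread, with 370 ± 471 CPM for wild type against 376 ± 466 CPM for knockout (SD, n = 3 each). In bulk RNA, more cells of a type and more RNA per cell cannot be told apart.

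The same pair of libraries stood out gene by gene. In 35 of 36 members wild type 1 and knockout 2 held the highest levels. Of the 20 members that passed the filter on low counts, 19 had this pair, against 5.91% of the 19042 genes tested across the genome. The exception was Mybpc2, the fast isoform of myosin-binding protein C, which ranged only from 2.66 to 4.15 CPM. Of the 36 members, 22 were highest in wild type 1 and 14 in knockout 2. In 24 members both libraries exceeded the third-highest library at least 5-fold, with that library's level set to no less than 3 reads. No member had 0 reads in wild type 1 or knockout 2, whereas 6 to 8 members had 0 reads in each of the other 4 libraries.

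**Figure D1:**
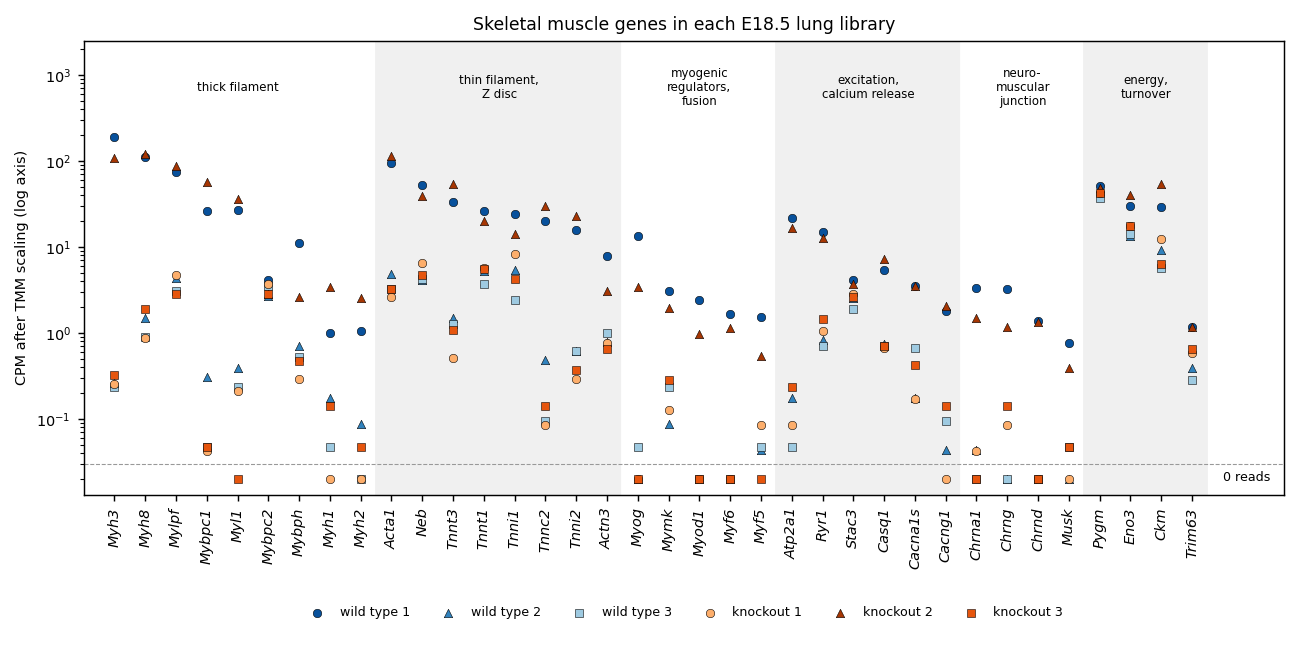
CPM after TMM scaling (log axis) of the 36 skeletal muscle genes in each of the 6 libraries, grouped by role, with genes at 0 reads under the dashed line. Each point is 1 library, in blue for wild type and orange for knockout, and wild type 1 and knockout 2 are the upper 2 points in 35 of 36 genes.

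Thick filament genes, which encode the myosin motor and the proteins bound to it, summed to 447 CPM in wild type 1, to 418 CPM in knockout 2 and to between 8.51 and 10.4 CPM in the other 4 libraries. Myh3, the embryonic myosin heavy chain, had the highest mean CPM of the members over the 6 libraries: it stood at 191, 0.261 and 0.235 CPM in wild type 1 to 3 and at 0.251, 108 and 0.327 CPM in knockout 1 to 3. The 4 low libraries held 5 to 7 Myh3 reads each, against 4225 in wild type 1 and 2201 in knockout 2. Myh8, the perinatal heavy chain, stood at 112, 1.48 and 0.893 CPM in wild type and at 0.879, 120 and 1.91 CPM in knockout. The adult fast heavy chains were far lower even in the high pair. Myh1 (type IIx) reached 0.994 CPM in wild type 1 against 3.42 CPM in knockout 2, and Myh2 (type IIa) 1.04 and 2.54 CPM, with at most 4 reads of either gene elsewhere. These heavy chain genes lie in a row on chromosome 11 of mm10, from Myh3 (67078300 to 67102291) through Myh2 and Myh1 to Myh8 (67277124 to 67308634), all on the plus strand. They are similar in sequence, so a share of their reads may have been assigned to a neighbour or dropped in mapping.

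The light chains and binding proteins had the same pair of high libraries. Mylpf, the regulatory light chain of fast fibres, stood at 74.4, 4.36 and 3.06 CPM in wild type and at 4.65, 86.4 and 2.80 CPM in knockout. RPKM scales by the gene length given with the counts as well as by reads. On that scale Mylpf was the highest member in both, at 70.0 in wild type 1 and 81.4 in knockout 2. Acta1 (61.7 and 73.2) and Myh3 (31.5 and 17.8) lay below it. The nearly identical pseudogene Mylf-ps had 400 and 452 reads in these libraries and 2 to 6 in the others, so the split of reads between it and Mylpf is uncertain. Myl1, the essential light chain of fast fibres, stood at 26.5, 0.392 and 0.235 CPM in wild type and at 0.209, 35.7 and 0 CPM in knockout. Mybpc1, the slow isoform of myosin-binding protein C, stood at 25.9, 0.305 and 0.047 CPM in wild type and at 0.042, 57.1 and 0.047 CPM in knockout. Mybph, a relative of these binding proteins, reached 11 CPM in wild type 1 but only 2.59 CPM in knockout 2, and 0.293 to 0.697 CPM in the rest.

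Thin filament and Z disc genes encode actin, the troponin switch and the proteins that anchor and measure the filament. Acta1, skeletal alpha-actin, stood at 94.8, 4.88 and 3.20 CPM in wild type and at 2.60, 112 and 3.27 CPM in knockout. Neb, the giant protein that spans the thin filament, stood at 51.8, 4.14 and 4.18 CPM in wild type and at 6.49, 38.7 and 4.71 CPM in knockout. Both genotypes thus contained a high library and a pair of low ones, and the genotypes overlapped. Tnnt3 and Tnnt1 encode the fast and slow forms of troponin T. Tnnt3 stood at 33.2, 1.48 and 1.27 CPM in wild type and at 0.502, 54.2 and 1.07 CPM in knockout, and Tnnt1 at 26.2, 5.18 and 3.67 CPM and at 5.69, 20.1 and 5.51 CPM. Tnni1, slow troponin I, stood at 24.2, 5.32 and 2.40 CPM in wild type and at 8.25, 14.2 and 4.25 CPM in knockout. The slow troponin genes therefore had a higher floor in the low libraries than the fast ones. Fast troponin I (Tnni2) lay at 0.293 to 0.611 CPM there and fast troponin C (Tnnc2) at 0.0837 to 0.479 CPM. Actn3, the alpha-actinin of fast fibres, completed the group at 7.86 CPM in wild type 1, 3.03 CPM in knockout 2 and 0.653 to 0.987 CPM in the others.

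The transcription factors that direct myogenesis had nearly all of their reads in the same pair of libraries. Myog (myogenin), which drives terminal differentiation, had 297 reads in wild type 1 and 70 in knockout 2, 1 read in wild type 3 and 0 in the other 3. Myod1, a determination factor, had 53 reads in wild type 1, 20 in knockout 2 and 0 in the remaining 4. Myf6 had 37 and 23 reads and likewise 0 in the remaining 4. Myf5, the earliest of the 4 factors to appear in the embryo, had 34 reads in wild type 1, 11 in knockout 2 and 0 to 2 elsewhere. Mymk (myomaker), needed for the fusion of precursors into fibres, stood at 3.07, 0.0871 and 0.235 CPM in wild type and at 0.126, 1.96 and 0.28 CPM in knockout. Pax7, the marker of muscle progenitors and satellite cells, is not one of the 36 genes but had 42 reads in wild type 1, 13 in knockout 2 and 0 in the rest. Genes known from progenitors, from differentiating cells and from fibres were thus all counted in these 2 libraries. Myf5 and Myf6 lie beside each other on the minus strand of chromosome 10, at 107482908 to 107486134 and 107492853 to 107494737.

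Genes of excitation and calcium release followed, summing to 51.0 CPM in wild type 1, 46.0 CPM in knockout 2 and 4.09 to 5.55 CPM in the others. Atp2a1, the calcium pump that refills the sarcoplasmic reticulum of fast fibres (SERCA1), stood at 21.6, 0.174 and 0.047 CPM in wild type and at 0.0837, 16.7 and 0.233 CPM in knockout. Ryr1, the calcium release channel, stood at 14.7, 0.828 and 0.705 CPM in wild type and at 1.05, 12.7 and 1.45 CPM in knockout. Casq1, the calcium buffer of that compartment, stood at 5.37, 0.741 and 0.705 CPM and at 0.670, 7.29 and 0.7 CPM. Cacna1s, the voltage sensor, stood at 3.52, 0.174 and 0.658 CPM in wild type and at 0.167, 3.47 and 0.42 CPM in knockout, and its gamma subunit Cacng1 at 1.81 CPM in wild type 1 against 2.05 CPM in knockout 2, with 0 to 3 reads elsewhere. Wild type 1 and knockout 2 differed from each other by at most 1.36-fold in these genes. Stac3, which couples the sensor to the release channel, varied least in this group, at 4.06, 2.53 and 1.88 CPM in wild type and at 2.85, 3.72 and 2.61 CPM in knockout.

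The neuromuscular junction genes were the rarest group, with 192 reads in wild type 1, 89 in knockout 2 and 1 to 4 in each of the others. Chrna1, the alpha subunit of the muscle acetylcholine receptor, had 73 reads in wild type 1, 30 in knockout 2 and 0 or 1 elsewhere. Chrng, the gamma subunit of the fetal receptor, had 72 and 24 reads and 0 to 3 elsewhere. Chrnd, the delta subunit, had 30 and 27 reads and 0 in the other 4, and Musk, the kinase that gathers receptors at the junction, had 17 and 8 reads and 0 or 1 elsewhere. The epsilon subunit Chrne, which replaces gamma in the adult receptor, had 1 read in wild type 1 and 0 in knockout 2. Reads of the fetal subunit thus outnumbered those of the adult one in both libraries. Chrnd and Chrng are neighbours on chromosome 1, at 87190607 to 87200070 and 87204657 to 87212694.

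The genes of energy supply differed least between libraries. Pygm, muscle glycogen phosphorylase, lay at 50.7, 47.7 and 37.1 CPM in wild type and at 42.3, 48.2 and 42.2 CPM in knockout, and thus hardly varied between libraries. Eno3, the beta-enolase of muscle glycolysis, stood at 30.1, 13.5 and 14.2 CPM in wild type and at 17.6, 39.8 and 17.4 CPM in knockout. Ckm, muscle creatine kinase, stood at 29.2, 9.15 and 5.74 CPM and at 12.3, 53.4 and 6.39 CPM. Trim63, the ubiquitin ligase MuRF1 of muscle protein turnover, stood at 1.17 CPM in both wild type 1 and knockout 2 and at 0.282 to 0.653 CPM elsewhere. To describe the floor, the members were split at 10 reads, a set limit and not a gap in their values. The 21 genes with under 10 reads in some library summed to 351 and 298 CPM in wild type 1 and knockout 2 and to 2.34 to 3.96 CPM in the other 4. The 15 genes with at least 10 reads in every library summed to 563 and 617 CPM against 83.5 to 110 CPM. Of this last sum, Pygm alone gave 37.1 to 47.7 CPM.

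Promoter sequences were read for 26 of the 36 members, as the 250 bases before the start site in RefSeq's GRCm38.p6 (mm10) annotation, taking the first entry where a gene had several. CAGCTG, the form of the E-box often bound by myogenic regulatory factors, occurred on either strand (it is its own reverse complement) in 15 of 26 members (57.7%) and in 13% of all 32851 promoters in that table. The wider E-box CANNTG, which includes CAGCTG, was found in 22 of 26 (84.6%) and in 66.2% of all. MEF2 motifs (YTAWWWWTAR) occurred in 2 of 26 (7.69%, against 2.92%) and CArG boxes (CCWWWWWWGG) in 1 of 26 (3.85%, against 1.47%). Here Y is C or T, W is A or T, and R is A or G. Only full matches were counted, so the near match ctatatttat in the Myog window scored 0, and sites of other forms are not excluded. In 3 members, Chrna1, Chrng and Pygm, the window held CAGCTG at least 2 times, as in 1.26% of all promoters. These 3 are printed below with Mylpf, the highest member per length, because they pair rare, library-restricted receptor genes with a gene that hardly varied. Each is written 5′ to 3′ along its gene's strand, with CAGCTG in capitals. They are Chrna1 at chr2:73580339-73580588 on the minus strand, and on the plus strand Chrng at chr1:87205561-87205810, Mylpf at chr7:127211358-127211607 and Pygm at chr19:6384158-6384407. The windows of Chrng and Mylpf lie inside the longer gene spans of the count table, whose Ensembl models start upstream.
Chrna1: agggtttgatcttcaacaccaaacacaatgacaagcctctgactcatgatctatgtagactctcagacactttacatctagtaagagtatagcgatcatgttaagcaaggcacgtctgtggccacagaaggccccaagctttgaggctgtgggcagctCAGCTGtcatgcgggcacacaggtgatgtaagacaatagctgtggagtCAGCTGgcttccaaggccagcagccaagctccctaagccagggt
Chrng: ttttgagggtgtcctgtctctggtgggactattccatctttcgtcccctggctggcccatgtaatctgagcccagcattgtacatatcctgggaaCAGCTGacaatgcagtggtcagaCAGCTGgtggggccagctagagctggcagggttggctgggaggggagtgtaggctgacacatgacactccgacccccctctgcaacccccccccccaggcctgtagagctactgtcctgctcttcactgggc
Mylpf: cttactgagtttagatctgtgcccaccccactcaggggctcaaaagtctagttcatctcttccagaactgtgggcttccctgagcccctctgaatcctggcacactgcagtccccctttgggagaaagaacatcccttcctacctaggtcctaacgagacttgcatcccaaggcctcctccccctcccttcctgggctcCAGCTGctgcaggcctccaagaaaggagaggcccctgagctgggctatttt
Pygm: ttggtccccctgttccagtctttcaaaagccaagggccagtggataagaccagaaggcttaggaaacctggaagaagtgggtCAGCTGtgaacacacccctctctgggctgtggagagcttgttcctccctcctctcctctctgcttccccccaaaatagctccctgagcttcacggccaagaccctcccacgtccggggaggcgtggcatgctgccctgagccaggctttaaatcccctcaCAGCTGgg

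Counted from the start site, CAGCTG lay at bases -92 to -87 and -44 to -39 in Chrna1, at -155 to -150 and -132 to -127 in Chrng, at -51 to -46 in Mylpf, and at -168 to -163 and -8 to -3 in Pygm. Pygm thus carried as many matches as the 2 receptor genes while its level ranged only from 37.1 to 50.7 CPM. A match describes letters in this window and was not measured as bound.

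The genotype comparison asks whether Mll3 knockout changed these transcripts. It called no member. Across the genome, edgeR's quasi-likelihood test at an adjusted p under 0.05 called 12 of 19042 genes higher in knockout (0.063%) and 58 lower (0.305%), 70 in all (0.368%). Of the 36 members, 20 passed the filter on low counts and 16 did not, including Myh3, Atp2a1 and all 4 myogenic regulatory factors. Of the 20, 0 were called and 0 had an unadjusted p under 0.05, with adjusted p from 0.756 to 0.995. DESeq2, which called 1.87% of the genes, also called 0 members but gave 11 of the 20 no adjusted p. Without the filter, edgeR tested all 36 members among 34615 genes, of which it called 1.28%, and again called 0 members (lowest adjusted p = 0.776). The log2 fold changes (knockout over wild type) ran from -1.89 ± 1.63 SE for Mybph to 0.70 ± 1.12 SE for Ckm. Acta1 stood at 0.19 ± 2.13 and Myh8 at 0.09 ± 2.52, so changes of several-fold in either direction were within their error. For Pygm, at -0.03 ± 0.12, the error was small.

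The members' median log2 fold change was 0.10, beside 0.01 over all genes tested, with 11 above 0 and 9 below. Over all 36, fitted without the filter, the sign turned: the median was -0.10, with 16 above 0 and 20 below. The median of the tested members became -1.98 without knockout 2 and 1.68 without wild type 1. Their median standard error was 1.45, against 0.121 over all genes tested. The genotypes overlapped in CPM in all 36 members, including the 20 tested, whereas 17% of all genes tested were separated. In 35 of 36 members the highest pair held 1 library of each genotype. Overlap follows from that pair and is not a separate result. The spread lay within the genotypes. The SD of log2 CPM around the genotype mean had a median of 2.25 over the 36 members. It was 1.80 over the 20 members tested and 0.146 over all genes tested. Among the 16960 genes with a mean of at least 1 CPM, which include 24 members, 16 of the 100 largest such SDs belonged to members. Myh3 ranked first with 5.00. Members such as Myh3 and Myog reached that mean only through wild type 1 and knockout 2, so this ranking restates their pattern. The smallest SDs among members were 0.184 for Pygm, 0.268 for Mybpc2 and 0.425 for Stac3.

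Sample titles begin with 1 of 2 numbers, for which the labels give no meaning, and the sign of the members' difference reversed between these prefixes. One holds wild type 1, wild type 2 and knockout 1, where 35 of 36 members were lower in knockout, with a median difference of -2.02 in log2 CPM. The other holds wild type 3, knockout 2 and knockout 3, where 35 of 36 were higher, with a median of 1.88. Over all genes tested the medians were 0.01 and 0.0042, with 9240 of 19042 below 0 in the first prefix and 9691 above 0 in the second. Each prefix contains 1 high library, of the opposite genotype, so the reversal largely restates the highest pair. Mybpc2 was the exception in both. With the prefix as a term in the fit, 625 of 19042 genes were called (3.28%) and again 0 members, at a lowest member adjusted p of 0.758.

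**Figure D2:**
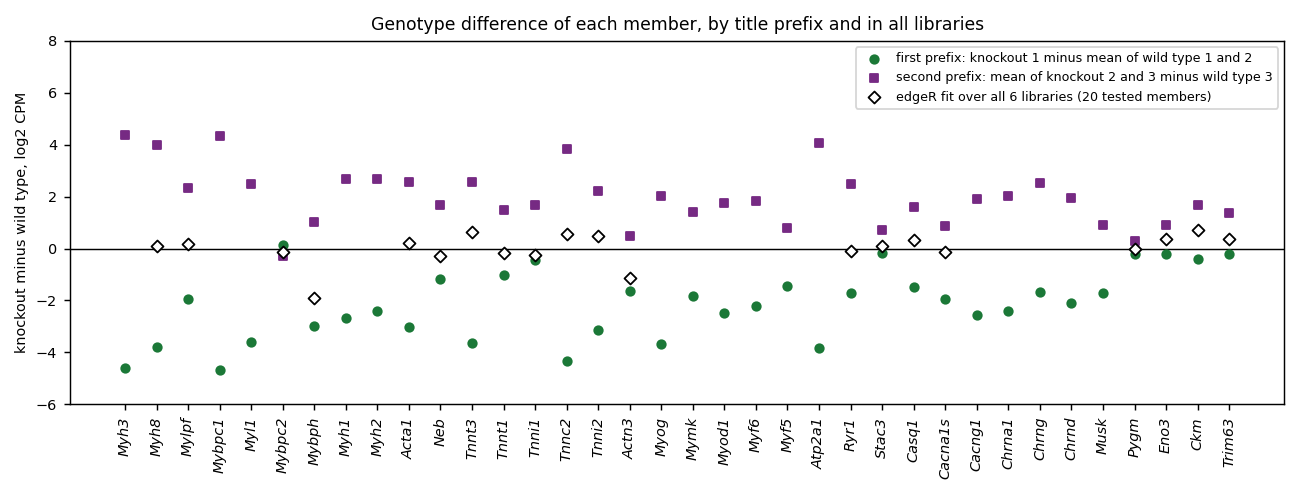
Difference in log2 CPM (knockout minus wild type) of each member within the prefix of wild type 1, wild type 2 and knockout 1 (green circles) and within that of wild type 3, knockout 2 and knockout 3 (purple squares), with edgeR's estimate over all 6 libraries (diamonds) for the 20 tested members. Of the 36 members, 35 lie below 0 in the first prefix and 35 above 0 in the second.

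The result was also taken without the 2 high libraries, a choice made after their values were seen. Of 19121 genes tested, edgeR then called 9 (0.0471%), and 0 of the 18 members that could be tested. Acta1 stood at -0.47 ± 0.28, Ckm at 0.33 ± 0.36 and Neb at 0.43 ± 0.24, with adjusted p of 0.873, 0.960 and 0.847. Eno3, at 0.35 ± 0.14, was the only member with an unadjusted p under 0.05 (adjusted p = 0.725). With 2 libraries a genotype, these values rest on few samples.

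Wild type 1 and knockout 2 reached nearly the same summed level, 913 and 914 CPM, but with a different mixture of muscle genes. They are single libraries of different genotype, so the ratios below compare these libraries and not the genotypes, and their 95% exact intervals cover counting error only. Of 36 members, 14 were higher in wild type 1, 13 were higher in knockout 2, and in 9 the interval held 1. The share of all genes whose interval leaves out 1 was not computed. These counts therefore do not show that muscle genes differed more than others. Higher in wild type 1 were Mybph (4.25-fold, 3.15 to 5.83), Myog (3.92-fold, 3.01 to 5.16), Chrng (2.77-fold, 1.72 to 4.6), Myod1 (2.45-fold, 1.44 to 4.32) and Myh3 (1.77-fold, 1.68 to 1.87). Higher in knockout 2 were Myh1 (3.45-fold, 2.11 to 5.85), Myh2 (2.45-fold, 1.47 to 4.19), Mybpc1 (2.21-fold, 2.00 to 2.44), Ckm (1.83-fold, 1.66 to 2.02) and Tnnt3 (1.63-fold, 1.48 to 1.79). The embryonic heavy chain, Myog, Myod1 and Myf5, and the receptor subunits Chrng and Chrna1 thus lay higher in wild type 1, and Myh1, Myh2 and the fast troponins Tnnt3, Tnni2 and Tnnc2 higher in knockout 2. Other fast-fibre genes went the other way or did not differ: Actn3 (2.59-fold, 1.93 to 3.52) and Atp2a1 (1.29-fold, 1.12 to 1.49) were higher in wild type 1, and the adult fast heavy chain Myh4, outside the set, had 16 and 15 reads. Ryr1, Cacna1s, Chrnd and Pygm were among the 9 with a ratio whose interval held 1.

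**Figure D3:**
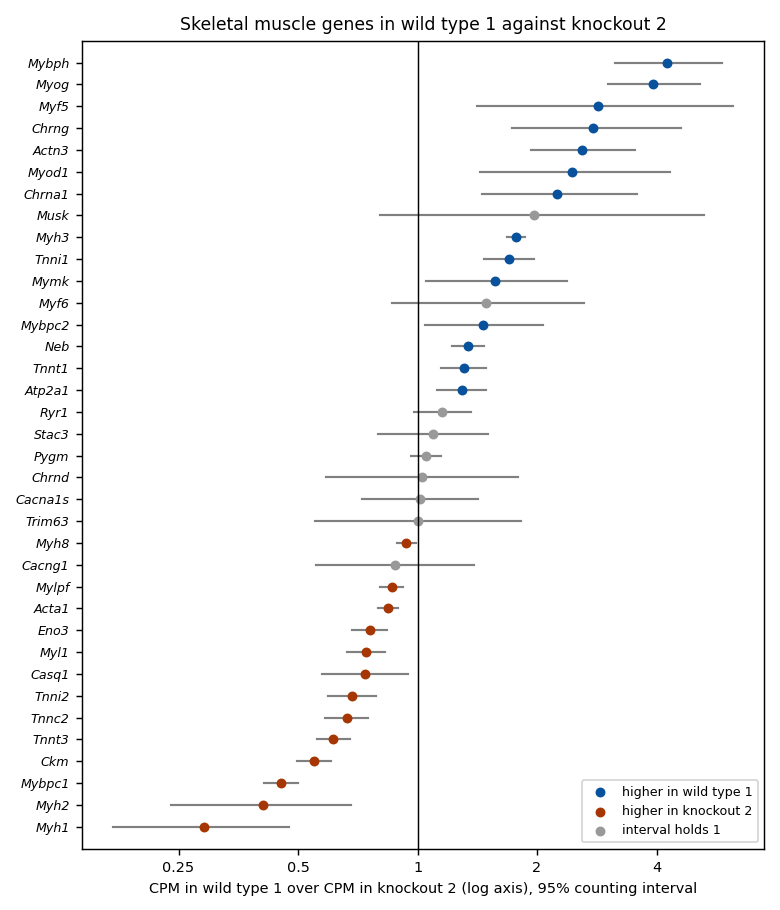
Ratio of CPM in wild type 1 to CPM in knockout 2 for each of the 36 members (log axis), with 95% exact intervals that cover counting error only. Mybph and Myog lie farthest toward wild type 1 (4.25 and 3.92), and Myh1 and Myh2 farthest toward knockout 2.

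Shares within protein families were compared on a scale that does not depend on the total. Of the reads of the skeletal heavy chains Myh1, Myh2, Myh3, Myh4 and Myh8, Myh3 took 62.4% in wild type 1 (61.3 to 63.6, exact binomial 95% interval) and 46.0% in knockout 2 (44.6 to 47.4). The share of Myh8 was 36.7% and 51.1%, and those of Myh1 and Myh2 were 0.325% and 0.34% in wild type 1 and 1.46% and 1.09% in knockout 2. Divided by the gene length given with the counts, which need not be the transcript's length, Myh3 made up 76.0% and 61.4%. That length was 6057 bases for Myh3 and 11772 for Myh8. By reads alone Myh8 exceeded Myh3 in knockout 2, so their order there rests on these lengths. Slow troponin I (Tnni1) took 60.8% of the reads of Tnni1 and Tnni2 in wild type 1 and 38.4% in knockout 2. Slow troponin T (Tnnt1) took 44.1% and 27.1% of those of Tnnt1 and Tnnt3. After length correction Tnni1 made up 39.2% and 20.6%, and Tnnt1 36.2% and 21.1%. On that scale the fast forms were the larger part in both libraries, whereas by reads Tnni1 was the larger part in wild type 1. The gene lengths used were 3600 bases for Tnni1 and 1497 for Tnni2, so the order of these genes in wild type 1 rests on them. The slow form Mybpc1 took 86.2% of the reads of Mybpc1 and Mybpc2 in wild type 1 and 95.3% in knockout 2, but Mybpc2 had 92 and 58 reads there and 61 to 88 in the other 4 libraries, and its part in that share was not tested. Myog made up 70.5% (65.9 to 74.9) of the reads of the 4 myogenic regulatory factors in wild type 1 and 56.5% (47.3 to 65.3) in knockout 2. Tnni1 and Tnnt1 also stood at 2.40 to 8.25 CPM in the other 4 libraries, and the part of that level in their shares was not tested.

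Further skeletal muscle genes were taken from a list of 76, of which 70 were in the table and 50 were tested. In 56 of the 70, wild type 1 and knockout 2 were the highest 2 libraries. By edgeR 0 rose and 0 fell, with 6 of the 50 at an unadjusted p under 0.05, beside 2043 of the 19042 genes tested. DESeq2, with 1.87% of all genes called, called 2, both lower in knockout: Myh14, a non-muscle myosin heavy chain, at -0.47 ± 0.13 (DESeq2 adjusted p = 0.0184), and Cavin4, a caveolar protein of muscle, at -0.77 ± 0.23 (DESeq2 adjusted p = 0.0347). The edgeR adjusted p of these were 0.283 and 0.338, and in neither were wild type 1 and knockout 2 the highest pair. The most abundant genes of the list are not restricted to skeletal muscle: Myh14 lay at 339 to 661 CPM and Lrp4, the receptor for agrin that also acts in Wnt signalling, at 237 to 293 CPM.

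By a rule of likeness, the 12 genes outside the set whose log2 CPM profile over the 6 libraries came nearest to the members' median profile included Sox10, Itgb1bp2, Actn2, Casq2, Hand2os1, Klhl41, Cav3, Gpr17, Myoz2, Vat1l and Csrp3. Their root mean square difference from that profile was 0.152 to 0.327 in log2 units, against a median of 1.48 over 16936 candidates. Actn2, Klhl41, Cav3 and Myoz2 belong to the list of further skeletal muscle genes. Actn2, the alpha-actinin of heart and skeletal muscle, stood at 32.9, 6.01 and 3.76 CPM in wild type and at 4.86, 32.0 and 5.93 CPM in knockout. Sox10, the transcription factor of neural crest and Schwann cells, stood at 3.25, 0.218 and 0.235 CPM in wild type and at 0.251, 2.35 and 0.187 CPM in knockout. Both genes were highest in wild type 1 and knockout 2, which follows from their selection by likeness to the members and is not a separate result. Candidates needed a mean of at least 1 CPM, which Sox10 reached only through these libraries.

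Marker lists of other tissues were read in the same libraries. Of 17 nerve and Schwann cell genes, 15 had wild type 1 and knockout 2 as their highest pair, and their summed level, most of it Pmp22 (196 to 293 CPM), was 341 to 410 CPM in wild type and 262 to 331 CPM in knockout. Pmp22 itself fell in knockout (log2 fold change -0.47 ± 0.07 SE, edgeR adjusted p = 0.0276), the only call in that list. Th was at 0 reads in wild type 2 and Nefl at 0 in knockout 3. Of 15 heart genes that are not also skeletal, 4 had this highest pair, and their sum was 232 to 325 CPM in wild type and 285 to 379 CPM in knockout. Myh6, the alpha heavy chain of atrial muscle, was lowest in wild type 1 (29.8 CPM) and highest in knockout 2 (84.6 CPM). Of 14 smooth muscle genes 6 had the highest pair, with sums of 2270 to 2906 CPM in wild type and 2136 to 2312 CPM in knockout. The sums of the 15 heart genes, the smooth muscle list and the nerve list did not have wild type 1 and knockout 2 highest. The whole heart list of 21 genes, with those shared with the skeletal list, did: 570 and 667 CPM against 382 to 494 CPM. Smooth muscle genes with this pair included Actg2 (66.7 and 28.1 CPM, 8.21 to 11.6 elsewhere) and Cnn1 (28.0 and 11.7 CPM, 2.88 to 3.29 elsewhere). Mylk, the most abundant gene of that list, did not have it.

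Some squamous and oesophageal epithelial genes were raised in single libraries, but not all of them. The 18 genes summed to 896 CPM in wild type 1, 45.4 CPM in wild type 2, 79.1 CPM in wild type 3, 51.3 CPM in knockout 1, 102 CPM in knockout 2 and 355 CPM in knockout 3. Krt4 and Krt13, keratins of internal stratified epithelia such as that of the oesophagus, reached 287 and 224 CPM in wild type 1 and no more than 1.66 CPM in any other library. Krt10, a keratin of the epidermis, reached 129 CPM in knockout 3 and 4.18 to 4.89 CPM elsewhere. Krt15, with the highest mean of the list, stood at 221, 27.0 and 54.4 CPM in wild type and at 33.1, 70.6 and 40.1 CPM in knockout. Wild type 1 and knockout 2 were thus its highest pair. Sbsn was spread over all libraries, at 8.62 to 18.7 CPM. Wild type 1 and knockout 2, alike in their muscle total, differed in the squamous sum and in Krt4, Krt13 and Krt15. Alb, the liver's albumin gene, reached 41.1 CPM in knockout 2 and 3.85 to 15.9 CPM elsewhere.

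Over the 6 libraries, the summed level of the remaining lists ranged over 124 to 159 CPM for cartilage, 59.7 to 74.0 CPM for thymus and T cells, 405 to 879 CPM for liver, 73.2 to 93.0 CPM for brown fat, 629 to 1058 CPM for pleural mesothelium, 358 to 417 CPM for tendon and connective tissue and 16664 to 19992 CPM for lung epithelium. Wild type 1 and knockout 2 were the highest pair in 7 of 11 tendon and connective tissue genes, 5 of 9 brown fat genes, 5 of 18 squamous genes, 4 of 11 mesothelial genes, 2 of 11 thymus genes, 1 of 12 cartilage genes and none of the liver or lung epithelial genes. The liver sum was mostly Trf, the transferrin gene, at 387 to 842 CPM. The part of nerve, squamous, heart and liver tissue in the muscle result was not tested.

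**Figure D4:**
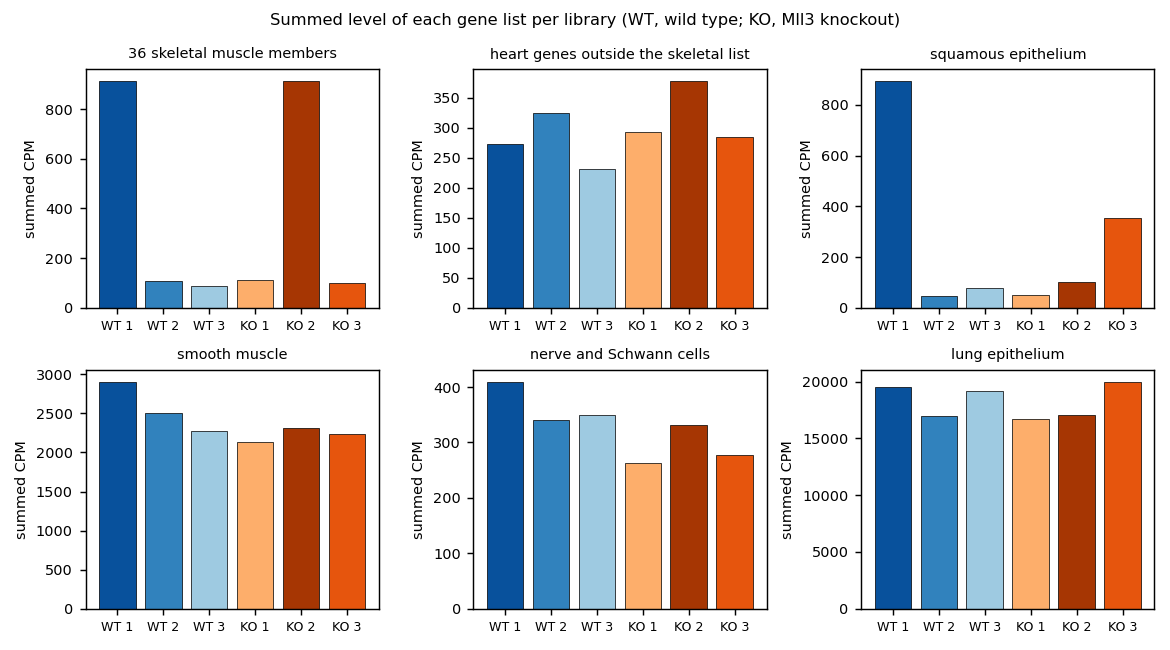
Summed CPM (bars, linear axes from 0) of the 36 skeletal muscle genes and of 5 marker lists in each of the 6 libraries. The skeletal muscle sum peaks in wild type 1 and knockout 2 at 913 and 914 CPM, and the squamous sum in wild type 1 at 896 CPM and in knockout 3 at 355 CPM.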

How the data were processed

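Polyadenylated RNA of 6 lung samples (3 per genotype) was analysed. The deposited count table holds raw read counts per gene, made with featureCounts 1.6.3 in reverse-stranded mode with a mapping quality of at least 1, per the file headers and the submitters' processing notes, which also name GSNAP, bcl2fastq 2.19.1, DESeq2 1.24.0 and mm10. Reads that fit several copies of a gene are largely lost under that mapping quality. Of its 55513 rows, 92 spike-in rows (1 read) were left out. The second table holds a normalized signal, in which the authors divided counts by a size factor per library; multiplied back, 100% of its values gave whole counts within 0.1 read.

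Counts were tested with edgeR 4.0.16 (R 4.3.3; TMM factors, filterByExpr, robust quasi-likelihood fit, genotype as the only term, all 6 libraries), with Benjamini-Hochberg adjustment over 19042 genes and a threshold of 0.05. The same fit on the recovered reads called 12 genes higher and 58 lower. Samples were grouped by the genotype label; replicate numbers follow sample order and pair nothing. CPM was scaled by TMM, log2 CPM used a prior of 2 reads, and RPKM used the table's gene lengths. DESeq2 1.42.0 and limma 3.58.1 were alternatives, and each procedure was tested on simulated data. The 36 members and the 12 marker lists were chosen with earlier results of these data known, so no test over a list was made. Values per library were given for up to 5 members of each role with the highest mean CPM and for the 4 myogenic regulatory factors, and genes of other lists were taken from the 4 with the highest mean CPM. The 12 genes nearest in profile were chosen by rule; 11 are named, 2 with values, and 1 is not reported here. Other members are given by range or ratio. Mylf-ps, Pax7, Chrne, Th, Nefl, Cavin4, Myh4, Actg2 and Cnn1 were named after their values were seen. Intervals and floors cover counting error only.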

Additional observations from a re-analysis of the deposited data

How the results depend on the processing

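None of 17 alternative settings of the fit called a member, across changes of scaling, filter, tool, pseudocount, block and library left out. Not every setting could call every member. DESeq2 gave 11 of 20 no adjusted p, and the filter of at least 1 CPM in 3 libraries tested 13 members. The fit on recovered reads used the same counts. With a median standard error of 1.45 in the main fit, the lack of calls does not show that the members were unchanged. Counts over all genes, higher and lower in knockout, were 12 and 58 and became 103 and 340 with no filter on low counts, 62 and 294 with DESeq2, and 4 and 28 when the split by Xist and Y-linked reads entered the fit. With a replicate block by title prefix they were 142 and 483; whether that prefix pairs samples is not given in the labels, and accession-order numbers pair nothing. Leaving out 1 library gave 0 to 5 genes higher and 0 to 36 lower. Without wild type 2 or wild type 3 edgeR called 0 genes, with 1954 and 1629 at an unadjusted p under 0.05. With wild type 1 and knockout 2 both left out, chosen after seeing the data, 1 gene was higher and 8 lower.

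The median log2 fold change of the tested members, 0.10, was -0.10 over all 36 without the filter and ranged from -1.98 (without knockout 2) to 1.68 (without wild type 1) when 1 library was left out. Single members moved likewise: leaving out 1 library gave -3.55 to 3.27 for Acta1, -0.65 to 1.68 for Ckm, -3.42 to 0.84 for Mybph, -4.79 to 5.08 for Myh8 and -0.16 to 0.057 for Pygm. Other settings also changed signs. Pygm became 0.0041 with library size only, 0.031 with the block and 0.0028 with the Xist split. Acta1 became -0.21 under limma with either pseudocount, -0.0075 with the block and -0.47 with both high libraries left out, and Myh8 -0.018 with the block. The cause of these shifts was not tested. Without wild type 1, 1 member (Trim63) had an unadjusted p under 0.05.

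Each library's share of the members' summed level did not turn on the scaling. The 16 members that failed the filter were tested only in settings that keep them: all 36 without the filter and 35 when wild type 2, wild type 3, knockout 1 or knockout 3 was left out. Depth limits the low libraries, where many members have 0 to 3 reads. With 3 libraries a group, no test for an outlying library was made.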
